A study of Mus musculus with 4 samples.

Results

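The genes described here are 9 genes that are commonly used to mark resident tissue macrophages in the mouse: Cd209f, Cd209g, Mrc1, Folr2, Lyve1, Cd163, Cbr2, F13a1 and Timd4. They were matched by symbol among the 32285 genes of the count tables, and all 9 were found. The list was chosen by their UMI counts and shares of cells in macrophages of these libraries, from the contrast of testicular organoids (TOs) with testes, so their levels in that contrast are given as a description and without a test.

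The libraries are 2 of TOs and 2 of mouse testes, made with the 10x Genomics Chromium 3′ chemistry from dissociated cells that were not sorted. The TOs were built from single cells of the testes of ICR mice a few days after birth, which were aggregated into spheroids, embedded in a basement membrane extract, freed of it and kept at an air-liquid interface. They were taken on day 28 of culture by the study's design, although the dissociation protocol in the labels says day 21, and the testes came from mice of 28 days. The labels name no genetic change in either group, and the TO cells had been through dissociation and culture, whereas the testis cells came straight from the animal. Each group has 2 libraries (replicates 1 and 2), and paired values are given in that order. The TOs came from independent batches according to the study's methods, and its supplement calls the testis libraries biological replicates.

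Macrophages that live in a tissue for long periods carry receptors for taking up sugars, lipoproteins, haemoglobin complexes and dying cells. In the testis they lie in the interstitium beside Leydig cells and along the peritubular surface of the tubules. Textbook accounts separate peritubular macrophages, rich in MHC class II, from interstitial macrophages with little of it, and they trace resident cells to embryonic precursors as well as to blood monocytes.

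Cd209f and Cd209g, lectin genes of the DC-SIGN family that bind glycans, are shown first because their upstream sequences share the longest identical stretch of any pair among the members and the Cd209 relatives, and because they had the largest differences between conditions. They lie on chromosome 8 on opposite strands, with upstream windows about 28 kb apart (Cd209f at chr8:4102787-4105835, minus strand, and Cd209g at chr8:4134098-4137707, plus strand, GENCODE vM21 of GRCm38). RefSeq entries on GRCm38.p6 gave the 250 bases before each start, and those that GENCODE annotates as 5′ UTR (71 in Cd209f and 84 in Cd209g) are not printed. The remaining bases are chr8:4105836-4106014, outside the gene as GENCODE draws it, and chr8:4134486-4134651, which lies in the single exon of a retained-intron transcript of Cd209g but before the start of its coding transcript. Capitals mark the identical stretch, of which 83 and 84 bases are shown, 5′ to 3′:
Cd209f: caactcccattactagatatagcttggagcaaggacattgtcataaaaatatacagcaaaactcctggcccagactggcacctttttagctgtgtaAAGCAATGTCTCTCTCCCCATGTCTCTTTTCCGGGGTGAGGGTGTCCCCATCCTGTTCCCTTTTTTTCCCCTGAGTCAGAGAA
Cd209g: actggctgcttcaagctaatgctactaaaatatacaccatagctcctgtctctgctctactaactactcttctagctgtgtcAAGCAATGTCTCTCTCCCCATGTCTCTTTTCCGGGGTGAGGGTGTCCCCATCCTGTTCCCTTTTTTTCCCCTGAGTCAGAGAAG
In the full windows the identical stretch was 154 bases long and 210 of 269 aligned positions were the same (78.1%). Among all other pairs of members and Cd209 relatives the longest identical run was 12 bases. The letters TATAAA stood in both windows, starting 29 bases before the RefSeq start of Cd209f and 43 bases before that of Cd209g, and in no other member's window. On either strand, TATAAA was found in 12.4% of 32851 promoter windows of this length. GAGGAA, the core bound by the myeloid factor PU.1, was found in the windows of Cbr2, F13a1 and Mrc1 among the 8 members with an entry, against 23.3% of all windows. TGCTGA, part of the motif bound by Maf factors, was found in Folr2 and Timd4, against 16.1%. Lyve1 had no entry. Where 3′ reads fall, none of 411 windows of 90 bases in the last 500 bases of the longest Cd209f transcript occurred in a Cd209g transcript.

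The other members are spread over the genome. Mrc1 lies at chr2:14229392-14332057 (plus strand, with Mir511 inside it), Folr2 at chr7:101839988-101857194 (minus), Lyve1 at chr7:110850607-110863239 (minus) and Cd163 at chr6:124304656-124330527 (plus). Cbr2 lies at chr11:120729489-120732114 (minus), Timd4 at chr11:46810800-46844332 (plus) and F13a1 at chr13:36867178-37050244 (minus). Annotated genes on the other strand overlap Folr2 (Gm10602 and Gm45319) and F13a1 (Gm49144 and Gm30489), and the strand setting of the counting is not given in the sources used here.

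The tables held 27134 barcodes from TOs and 24005 from testes, with 74988295 to 119966959 UMIs per library, and 30 to 55 barcodes were shared between any pair of libraries. After filtering, 18515 TO cells and 19383 testis cells were kept. A single cluster of 1345 cells was named macrophage: 270 and 695 cells in the TO libraries, 232 and 148 cells in testis replicates 1 and 2, with a median of 6326.5, 5981, 3069.5 and 4283.5 UMIs per cell. All 8 macrophage markers had UMIs in each library, and the leading genes of the cluster were Lyz2, C1qc, C1qa, Tyrobp and C1qb. The members were left out when cells were clustered. Spermatid markers, which macrophages do not express, summed to 2.02 and 4.03 CPM (UMIs per 1000000 UMIs of the cells) in the macrophages of TO replicates 1 and 2, with 8 of 9 at 0 in replicate 1, and to 3722 and 6226 CPM in those of the testis libraries. By the level of these markers relative to all other cells, free RNA was estimated to make up 41.1% and 8.91% of the macrophage UMIs of the testes. In macrophages, the lists of T cell, B cell, dendritic cell, neutrophil and mast cell markers each summed to at most 36.9 CPM. Markers of the somatic cells around them were higher in the TO macrophages. The other somatic cell markers summed there to 371 and 272 CPM in TOs and 44.5 and 16.0 CPM in testes, the Sertoli cell markers to 297 and 114 against 47.3 and 43.2 CPM, and the Leydig cell markers to 217 and 55.5 against 37.6 and 51.3 CPM. The part of these RNAs in the results was not tested.

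Among the lectins, Cd209f, which binds glycans on the cell surface, was at 6.05 and 1.12 CPM in the macrophages of the TO libraries and at 699 and 982 CPM in those of the testis libraries. The pooled level was 315-fold higher in testes (95% exact counting interval 196–543, 17 against 1115 UMIs). The few TO UMIs were concentrated: in TO replicate 1, 12 UMIs lay in 3 cells, 8 of them in 1 cell, and in TO replicate 2, 5 UMIs lay in 2 cells. After every cell had been thinned to 1500 UMIs, a UMI of Cd209f was found in 42.2% (95% exact binomial interval 35.8–48.9) and 49.3% (41.0–57.7) of the testis macrophages, in 0.743% of those of TO replicate 1 and in none of 694 in TO replicate 2.

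Cd209g, its neighbour, had no UMI in 270 and 695 macrophages of the TO libraries, which allows up to 1.11% and 0.432% of cells with a UMI and does not limit the share of cells that express it, against 160 and 277 CPM in the testis libraries. With 288 UMIs in testes and a floor of 3 counts over the TO group, it was at least 461-fold higher in testes. Thinned, 16.8% and 25.7% of testis macrophages had a UMI. The other 5 family members in the tables stood at most at 9.74 CPM in any library and were too low to be tested.

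Mrc1, the mannose receptor, was the most abundant member in TOs and showed the smallest difference among the members that were lower in both TO libraries. It was at 1033 and 1310 CPM in the TO libraries against 1546 and 1534 CPM in the testis libraries. The pooled level was 1.26-fold higher in testes (95% exact counting interval 1.20–1.32). After thinning, 63.9% and 76.7% of TO macrophages and 81.0% and 81.1% of testis macrophages had a UMI. Without thinning the shares overlapped, at 87.4% and 94.0% against 90.9% and 89.9%. Most TO macrophages carried Mrc1 while Cd209f and Cd209g were at or near 0 in the same libraries. For 8 of the 9 members both TO libraries lay below both testis libraries, in a contrast that was used to choose them. The share of all genes with this order of the libraries was not counted, so the 8 cannot be set against it. The edgeR call, a stricter measure than this order, was met by 12.6% of 9904 genes as lower in TOs.

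**Figure D1:**
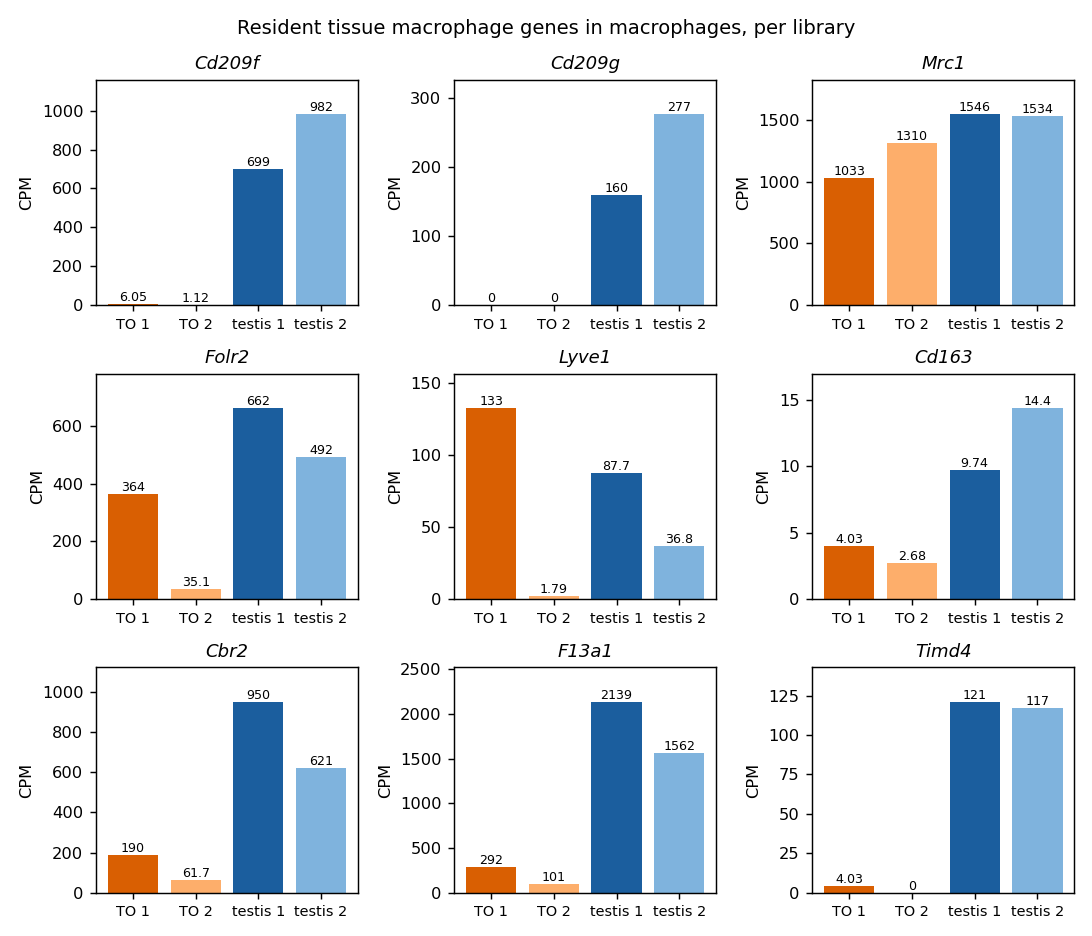
Level of each of the 9 members in macrophages, in CPM, with 1 bar and its value for each of the 4 libraries and an axis of its own for each gene. For 8 members both TO bars lie below both testis bars, from Mrc1 (1033 and 1310 against 1546 and 1534 CPM) to Cd209g (0 in both TO libraries), and for Lyve1 the groups overlap.

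Timd4, a receptor for phosphatidylserine on dying cells and a common mark of long-lived resident macrophages, was at 4.03 and 0 CPM in the TO libraries against 121 and 117 CPM in the testis libraries. That is 8 UMIs against 160, or a pooled level 96.1-fold higher in testes (95% exact counting interval 47.6–226). Thinned, 14.2% and 14.9% of testis macrophages and 0.372% and none of the TO macrophages had a UMI. Testis libraries were close to each other and far above both TO libraries.

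Folr2, a folate receptor, differed widely between the TO libraries. It was at 364 and 35.1 CPM in the TO libraries against 662 and 492 CPM in the testis libraries. In TO replicate 1, 722 UMIs lay in 114 cells, with 68 of them in 1 cell, and after thinning 20.8% of its macrophages had a UMI against 3.46% in TO replicate 2. Both testes were higher, with 50.9% and 37.2%.

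Lyve1, a receptor for hyaluronan that also marks lymphatic endothelium, was the single member whose groups overlapped. It was at 133 and 1.79 CPM in the TO libraries against 87.7 and 36.8 CPM in the testis libraries. In TO replicate 1 its 263 UMIs lay in 47 of 270 cells, 41 of them in 1 cell, and the 5 highest cells held 47.1%. In TO replicate 2 it had 8 UMIs in 8 of 695 cells. Without TO replicate 1, the remaining TO library lay below both testes.

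Cd163, the scavenger receptor for haemoglobin bound to haptoglobin, was close to the limit of detection in all libraries. It was at 4.03 and 2.68 CPM in the TO libraries against 9.74 and 14.4 CPM in the testis libraries, from 20 UMIs against 16, and at most 2.03% of the macrophages of a library had a UMI after thinning.

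The remaining members code for enzymes. Cbr2, a carbonyl reductase, was at 190.1 and 61.7 CPM in the TO libraries against 950 and 621 CPM in the testis libraries. Its pooled level was 7.88-fold higher in testes (95% exact counting interval 7.14–8.70). F13a1, the catalytic subunit of coagulation factor XIII, was at 292 and 101 CPM in TOs and at 2139 and 1562 CPM in testes (pooled 11.7-fold, 10.9–12.6). In testes F13a1 was the most abundant member and had a UMI in 75.9% and 59.5% of thinned macrophages, against 21.9% and 9.65% in TO replicates 1 and 2. TO replicate 1 was above TO replicate 2 for every member except Mrc1, which was lower there, and Cd209g, which was at 0 in both.

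Summed over the 9 members, macrophages had 2026 and 1513 CPM in the TO libraries against 6375 and 5636 CPM in the testis libraries. That is 1769 ± 362 against 6006 ± 522 CPM (mean ± SD, n = 2 libraries each), and the ratio of these means was 3.39. Relative to 16 genes shared by macrophages, which summed to 19106 and 19889 CPM in TOs and 18045 and 18252 CPM in testes, the sum was 106.0 and 76.1 UMIs per 1000 against 353 and 309. With the estimated free RNA subtracted in the testes, their sums were 10275 and 6159 CPM and the ratio was 4.64.

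Per cell, members were found together more often in testes. After thinning, 72.0% of 232 and 60.8% of 148 testis macrophages had UMIs of 3 or more members, against 14.1% of 269 and 2.74% of 694 in TO replicates 1 and 2. The median was 4 and 3 members per cell in testes and 1 and 1 in TOs. Cells with exactly 1 member were 39.0% and 64.3% of TO macrophages and 10.8% and 18.2% of testis macrophages. Cells with no member were 23.0% and 20.9% in TOs and 10.8% and 12.8% in testes.

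**Figure D2:**
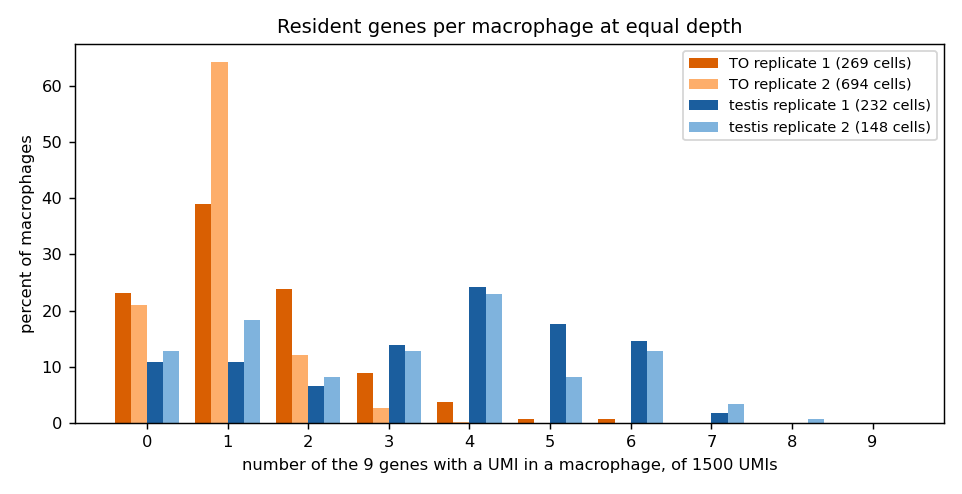
Share of macrophages, in percent, by the number of members with at least 1 UMI, after thinning each cell to 1500 UMIs, for each library. TO cells lie mostly at 0 and 1 member, and 72.0% and 60.8% of testis cells have 3 or more.

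Some members shared cells. In testis replicate 1, 96.9% of the 98 macrophages with Cd209f had F13a1 after thinning, against 60.4% of those without Cd209f, and 28.6% against 8.21% had Cd209g. In testis replicate 2, 86.3% of the 73 macrophages with Cd209f had F13a1 (33.3% of the others), 45.2% had Cd209g (6.67%) and 58.9% had Cbr2 (18.7%). In TO replicate 1, 61.9% of the 21 macrophages with Lyve1 also had Folr2, against 17.3% of the other 248, and 61.9% had F13a1, against 18.5%. The only 2 thinned cells of that library with Cd209f were among these 21. Cells of 1 library share their source, so these shares are a description of each library.

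Across cell types, the members were highest in macrophages in 33 of the 34 combinations of gene and library with a UMI. The exception was Timd4 in TO replicate 2, which had no UMI in macrophages and 1 in spermatogonia. Outside macrophages, Mrc1 stood out in Sertoli cells of testes, which nurse germ cells: it was at 125 and 191 CPM in the testis libraries (325 and 241 UMIs in 475 and 161 cells) and at 14.1 and 9.16 CPM in the TO libraries. Thinned, 13.1% (95% exact binomial interval 10.2–16.4) and 19.3% (13.5–26.2) of testis Sertoli cells had a UMI, against 1.97% and 0.974% in TOs. Leydig cells of the same testes had 0.353% and 0.293%. Mrc1 made up 94.2% and 98.0% of the member UMIs in testis Sertoli cells but 24.3% and 27.2% in testis macrophages.

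F13a1 was also found in testis spermatids, at 10.4 and 3.56 CPM (267 and 110 UMIs), where 1.79% and 0.650% of thinned cells had a UMI. It made up 73.0% and 54.5% of the member UMIs there and 33.6% and 27.7% in macrophages. In TO replicate 2, Lyve1 was at 1.42 CPM in the other somatic cells, the type of peritubular and stromal cells, close to its 1.79 CPM in macrophages. Folr2 was at 4.10 and 3.23 CPM in TO Sertoli cells and at 2.25 and 2.35 CPM in TO Leydig cells. Cbr2 was at 21.3 and 15.2 CPM in the endothelial cells of testes, from 14 and 9 UMIs. In TOs, the cells of the cluster named endothelial had no UMI of Pecam1, against 308 and 274 CPM in testes, and so did not bear out the name.

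**Figure D3:**
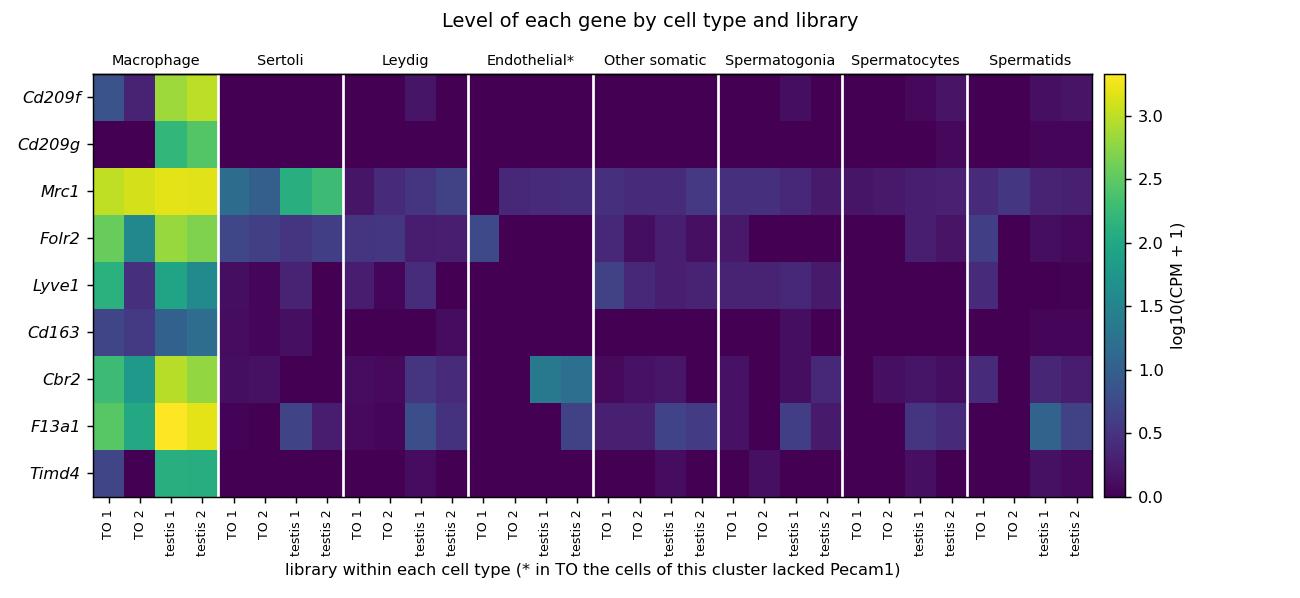
Level of each member, as log10(CPM + 1) by colour, by cell type and library, with 8 cell types named from markers. The macrophage columns hold the highest values, and Mrc1 in the Sertoli cells of testes (125 and 191 CPM) is the highest value outside macrophages.

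The genes whose levels were most like the summed members, by Pearson's r of log2(CPM + 1) over 32 sums of library and cell type among 4655 genes, were Pik3cg (0.940), P2ry12 (0.928), Ltc4s (0.924), Il10ra (0.917) and P2rx7 (0.917). The points share libraries and depth. In macrophages Pik3cg, a kinase of leukocyte signalling, was at 66.1 and 55.5 CPM in the TO libraries against 52.9 and 68.9 CPM in the testis libraries, and the groups overlap.

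The comparison that the choice of members did not use is that between macrophages with much and with little MHC class II, the proteins that present peptides to T cells. Macrophages with at least 20 UMIs of H2-Aa, H2-Ab1, H2-Eb1 and Cd74 per 10000 were called class II-high. This is a range of a continuous measure and not a cell type: 6, 73, 17 and 6 cells of TO replicates 1 and 2 and testis replicates 1 and 2 lay within 2-fold of the boundary. Class II-high cells were 5 (1.85%) and 94 (13.5%) of the macrophages in the TO libraries, and 31 (13.4%) and 43 (29.1%) of those in the testis libraries. The fit used the 3 libraries with at least 10 cells in both classes, with library as a block.

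F13a1 and Cbr2 fell in class II-high macrophages, by tests given after the values, and Cd209f is described beside them without a test. Cd209f was at 42.2 and 0 CPM in the class II-high cells of testis replicates 1 and 2, against 771 and 1192 CPM in their class II-low cells, and at 0 against 1.27 CPM in TO replicate 2. F13a1 was at 113 and 9.10 CPM against 2361 and 1893 CPM in testes and at 43.3 against 109 CPM in TO replicate 2. Cbr2 was at 113 and 36.4 CPM against 1042 and 746 CPM, and at 15.0 against 68.0 CPM. For F13a1 and Cbr2 the class II-low cells were higher in all 3 libraries. For Cd209f the difference lay in the testes, since TO replicate 2 had too few UMIs for it to be detectable.

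By the edgeR quasi-likelihood test (adjusted p under 0.01 after Benjamini-Hochberg, and over 1 on the log2 scale), 0.104% of the 8692 genes tested were lower in class II-high cells and 0.138% higher (0.242% in all). The genes called higher include H2-Aa, H2-Ab1, H2-Eb1 and Cd74, whose difference was fixed by the split and is no result. Among the 8 members that passed the filter on low counts, Cbr2 (log2 fold change −3.27, standard error 0.42, adjusted p = 1.02e-05) and F13a1 (−3.83, 0.59, 0.000206) were lower. Cd209f passed the filter only through the class II-low cells of the testes, so its fitted value is not given as a test. Cd209g and Timd4 passed the filter only through those cells and had no UMI in class II-high cells of the 3 libraries nor in the class II-low cells of TO replicate 2, so that a difference followed from the filter and their fitted values are given neither as a test nor as a bound. Over both testes their pooled levels were at least 15.0-fold and at least 8.31-fold higher in class II-low cells, with a floor of 3 counts over the group.

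Mrc1 (log2 fold change −1.35, standard error 0.36, adjusted p = 0.0767) did not pass in this edgeR fit. Folr2 and Lyve1 did not pass the thresholds either. Both passed the filter on low counts only through class II-low cells, so their fitted values are not given as a test. Lyve1 had no UMI in the class II-high cells of the 3 libraries. Folr2 had no UMI in the class II-high cells of the testes, against 735 and 597 CPM in class II-low cells, which is at least 40.6-fold pooled, but was at 39.5 against 34.5 CPM in TO replicate 2. Mrc1 was at 492 and 528 CPM against 1662 and 1749 CPM in testes and at 1031 against 1347 CPM in TO replicate 2. Cd163 was too low to be tested.

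**Figure D4:**
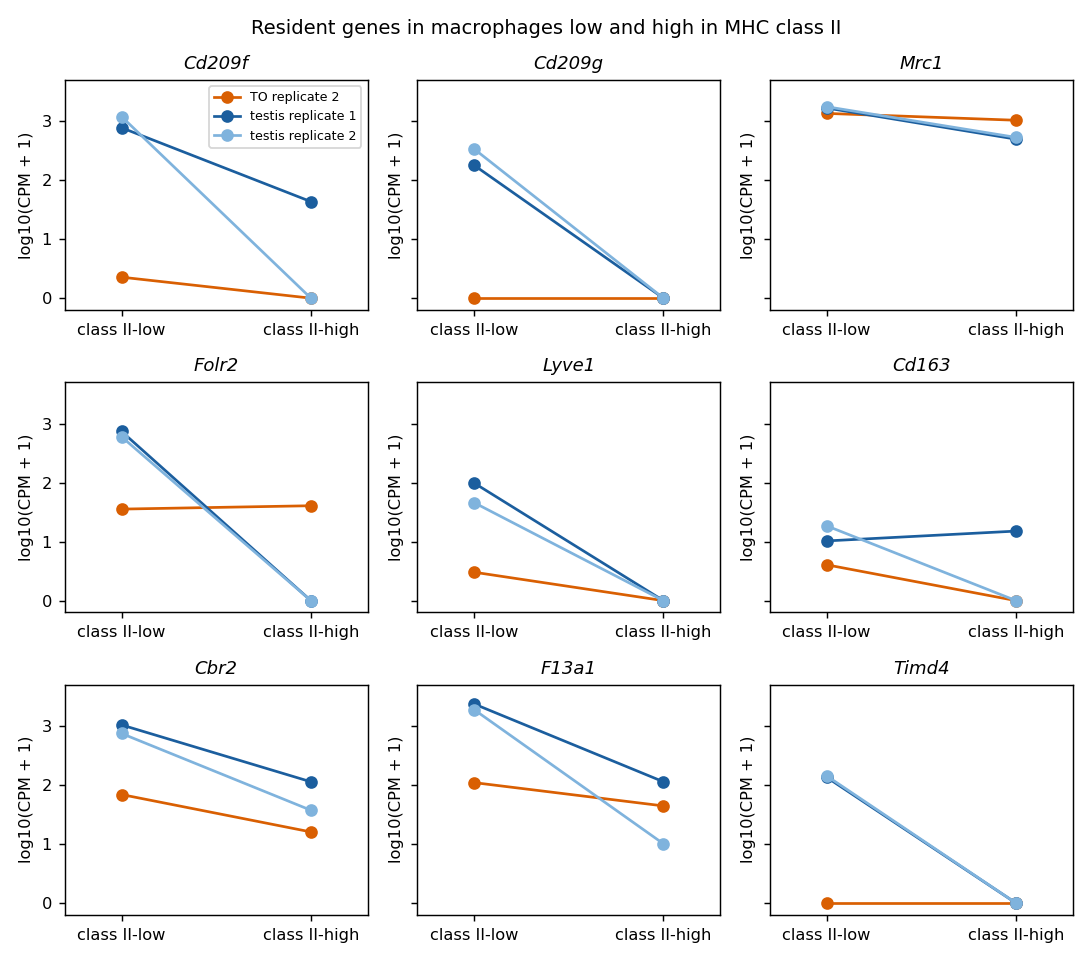
Level of each member in class II-low and class II-high macrophages, as log10(CPM + 1), for TO replicate 2 and testis replicates 1 and 2, with lines joining the classes of 1 library. The lines of the testes fall steeply for Cd209f, F13a1 and Cbr2, whereas Folr2 in TO replicate 2 is at 34.5 and 39.5 CPM.

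Summed, the members were at 774 and 573 CPM in the class II-high cells of testis replicates 1 and 2 and at 6990 and 6718 CPM in the class II-low cells, or 10.5-fold pooled (95% exact counting interval 8.78–12.7). In TO replicate 2 the sums were 1129 and 1565 CPM. The genes shared by macrophages also differed, at 8046 and 12942 CPM in class II-high and 19142 and 19385 CPM in class II-low cells of the testes, and spermatid markers were at 5247 and 11796 against 3555 and 5036 CPM. Per 1000 UMIs of the shared genes, the members stood at 96.2 and 44.3 against 365 and 347 in testes and at 51.8 against 79.7 in TO replicate 2. The B cell list was at 127 CPM (9 UMIs) and 27.3 CPM in class II-high cells of testes and at 6.18 and 3.89 CPM in class II-low cells. The part of these RNAs in the difference was not tested.

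Which members passed the thresholds depended on the libraries, with Cd209f, Cd209g, Timd4, Folr2 and Lyve1 counted although they are given no test. Without testis replicate 2, 1 of 5 tested passed (Cd209f), without testis replicate 1, 2 of 4 (Cbr2 and F13a1), and without TO replicate 2, all 8 tested. DESeq2 called 2 (Cbr2 and F13a1). A boundary of 10 UMIs per 10000 called 4 (Lyve1, Cd209f, Cd209g and Cbr2) and a boundary of 40 called 1 (Cd209f), so F13a1 was called at neither. Every tested member had a log2 fold change below 0 in each of these fits. For members that passed the filter only through class II-low cells, this sign followed from the filter. The share of all genes below 0 was not counted.

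Other genes of resident macrophages behaved in part alike between the classes. Of 20 listed genes, edgeR called 3 lower and 1 higher in class II-high cells, with Vsig4 among the lower. Vsig4, a complement receptor, had no UMI in class II-high cells of the 3 libraries and was at 570 and 1256 CPM in the class II-low cells of testis replicates 1 and 2. It passed the filter on low counts only through class II-low cells, so its call is not given as a test. The same held for Slc40a1, the iron exporter, and for Ednrb, so their calls are not given as tests either. In the class II-low cells of testis replicates 1 and 2, Slc40a1 was at 374 and 430 CPM and Ednrb at 122 and 196 CPM. In TO replicate 2, class II-high against class II-low, Slc40a1 was at 13.2 against 21.8 CPM and Ednrb at 24.5 against 74.1 CPM. Neither had a UMI in the class II-high cells of the testes. Mgl2, a lectin of dermal dendritic cells and some macrophages, was the gene called higher. It was at 225 and 1138 CPM in class II-high cells of testes against 10.8 and 25.3 CPM in class II-low cells. In TO replicate 2 Mgl2 was at 3.76 against 4.06 CPM. Mgl2 passed the filter only through class II-high cells, so its call is not given as a test. The median log2 difference of the 20 was −1.88, against −0.10 over all genes tested. Ccr2, the receptor that brings monocytes into tissue, was the single gene of 4 tested monocyte and inflammatory genes called higher. It was at 309 and 510 CPM in class II-high cells of testes against 43.2 and 5.83 CPM in class II-low cells. In TO replicate 2 Ccr2 was at 37.6 against 14.7 CPM. Ccr2 also passed the filter only through class II-high cells, so its call is not given as a test. Without testis replicate 2, Slc40a1 (−2.36), Ednrb (−2.04), Ccr2 (2.03) and also Vsig4 were not called. DESeq2 called 2 genes lower in class II-high cells, Cbr2 and F13a1, and so none of Vsig4, Slc40a1 and Ednrb.

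Between TO and testis macrophages, lists of other genes are set beside the members as a description. The lists were fixed with earlier results of these data known, so their counts and p-values are not an independent test. Of 9904 genes tested, 12.6% were lower and 2.68% higher in TOs (15.3% in all), with a median log2 fold change of 0.10. Among the 20 other resident macrophage genes, 6 fell and 2 rose (median −0.28). Slc40a1 was at 14.1 and 20.8 CPM in the TO libraries against 337 and 354 CPM in the testis libraries (log2 fold change −4.06, standard error 0.31, edgeR adjusted p = 4.30e-06). Vsig4 was at 72.1 and 4.92 CPM against 513 and 1035 CPM (−4.19, 0.86, edgeR adjusted p = 0.00386), and Mgl2 at 6.05 and 4.03 against 32.0 and 221 CPM (−4.48, 0.74, edgeR adjusted p = 0.000819). The others to fall were Ccl24, Fcgrt and Pf4.

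The other resident macrophage genes that rose were Marco and Ccl8. Marco, a scavenger receptor, was at 335 and 107 CPM in the TO libraries against 8.35 and 8.01 CPM in the testis libraries (log2 fold change 4.95, standard error 0.62, edgeR adjusted p = 0.000109), and the chemokine Ccl8 was at 452 and 183 against 84.9 and 36.8 CPM (2.58, 0.48, edgeR adjusted p = 0.00190). Of 10 tested scavenger and uptake receptors, 2 rose (Marco and Cd36) and none fell. Cd36, a fatty acid transporter, was at 854 and 666 against 34.8 and 25.6 CPM.

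Of 9 tested lipid-handling genes, 7 rose and none fell (median log2 fold change 3.73). Spp1, osteopontin, was at 3700 and 701 CPM in the TO libraries against 5.57 and 38.4 CPM in the testis libraries (log2 fold change 6.89, standard error 0.90, edgeR adjusted p = 0.000145). Fabp5, a fatty acid binding protein, was at 1056 and 1139 against 26.4 and 38.4 CPM (5.30, 0.35, edgeR adjusted p = 3.59e-06), and Lgals3, galectin 3, at 1819 and 943 against 97.4 and 96.1 CPM (4.04, 0.38, edgeR adjusted p = 1.36e-05). The others to rise were Cd9, Cd63, Lpl and Trem2.

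Of 16 genes shared by macrophages, 1 rose, the lipopolysaccharide co-receptor Cd14 (log2 fold change 2.46, standard error 0.34, edgeR adjusted p = 0.000232), and none fell. Of 6 tested MHC class II genes, 1 fell: H2-Ab1 was at 13.1 and 64.4 CPM in TOs and at 213 and 492 CPM in testes (−2.91, 0.59, edgeR adjusted p = 0.00346). Of 4 tested monocyte and inflammatory genes, S100a4 and S100a6 rose and Ccr2 fell (−2.42, 0.40, edgeR adjusted p = 0.000864). S100a4 (2.22, edgeR adjusted p = 0.00454) and S100a6 (1.93, edgeR adjusted p = 0.00645) were not called without TO replicate 1, with values of 1.16 and 1.01. Of 6 tested relatives of the members, Cbr3 rose (1.59, 0.30, edgeR adjusted p = 0.00193). With the estimated free RNA subtracted in the testes, no gene was called by edgeR in this contrast, and 1291 of 9138 had an unadjusted p below 0.05. The named list genes kept their direction, with log2 fold changes of −4.60 for Slc40a1, 4.45 for Marco and 6.57 for Spp1. DESeq2 was not run on the subtracted counts.

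**Figure D5:**
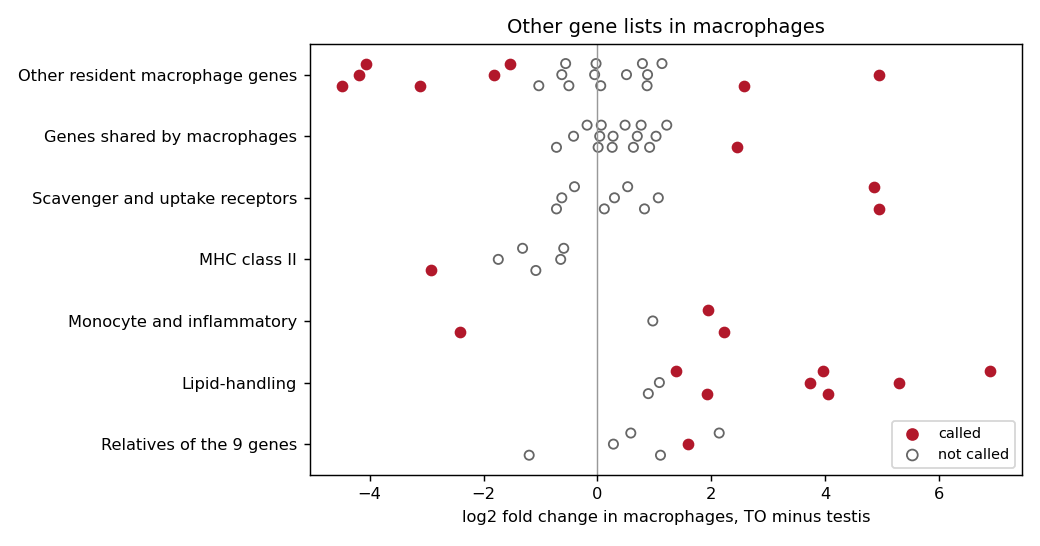
Log2 fold change, TO minus testis, of each tested gene of the fixed lists in macrophages, with 1 point a gene, filled where edgeR called it and open where not. The 9 lipid-handling genes lie above 0 (median 3.73), and the 20 other resident macrophage genes lie on both sides (median −0.28).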

How the data were processed

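Single-cell suspensions of 2 TO and 2 testis libraries were analysed from UMI counts that the authors deposited, raw and per gene and barcode. The submitters' processing notes name Cell Ranger 7.1.0 and mm10; the annotation is not given in the sources used here. Groups came from the sample titles. The members and the gene lists were chosen with earlier results of these data known.

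Scrublet scores (scanpy 1.11.5) were used to remove the barcodes most like doublets, 0.8% per 1000 barcodes of a library. Filters kept 1000 to 5000 genes, no more than 20000 UMIs and a mitochondrial share of up to 10%. Counts were scaled to 10000, 2000 variable genes without the members and 30 principal components were taken, libraries were joined with an own version of the Harmony procedure, and Leiden clusters (leidenalg 0.10.2, 20 neighbours, resolution 1) were named from markers. Because the names were rebuilt, they may be a source of differences from the study. UMIs were summed per library and type, in types of at least 20 cells, and shares of cells were taken after thinning to 1500 UMIs, which left out 1 macrophage in each TO library.

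The quasi-likelihood test of edgeR 4.0.16 (R 4.3.3) was run on the sums with TMM and filterByExpr, and DESeq2 1.42.0 as an alternative. Calls needed a p under 0.01 after Benjamini-Hochberg adjustment and a change over 1 on the log2 scale. Between TOs and testes, genes whose CPM in the other cells of either condition was at least 5 times that in macrophages were left out before adjustment. No such genes were left out of the class fits. A library entered the class fit with 10 or more cells in both classes. P-values between TOs and testes measure the spread between 2 libraries per group, and members are given no p there. P-values between the classes measure the spread of the class difference over TO replicate 2 and both testis libraries. Intervals are 95% and exact, and with floors of 3 counts they cover counting error only. In simulated sums edgeR called 66.7% and 89.1% of genes changed by 2 and 3 on the log2 scale between TO and testis, and 70.5% and 81.0% between the classes.

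The text names all 9 members, from each list the called genes with the largest change (up to 3 per direction) and the 5 genes most alike among those of at least 50 CPM; other names complete a count. Sequences and motifs came from the RefSeq promoter table and were aligned with Biopython 1.88. Alternatives covered clustering, doublets, filters, free RNA, the class boundary, normalization, the replicate block and leaving out each library.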

Additional observations from a re-analysis of the deposited data

Results flagged for a closer look

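Folr2 was flagged because its difference between MHC class II-high and class II-low macrophages had opposite signs in the 2 conditions. Class II-high minus class II-low was 4.98 CPM in TO replicate 2, −735 CPM in testis replicate 1 and −597 CPM in testis replicate 2. The difference between the conditions was not tested, and it rests on 1 TO library, since TO replicate 1 held 5 class II-high cells (215 CPM against 366 CPM in its class II-low cells).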

How the results depend on the processing

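Between TO and testis macrophages, 1511 genes were called, and 1154 to 1647 with 1 library left out. With free RNA subtracted in the testes, 0 genes were called (1291 at an unadjusted p below 0.05 by edgeR), and 0 in place of 22 genes of the lists. Calls were 265 higher and 1246 lower in TOs, and 638 higher and 1486 lower without a filter on low counts.

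Between the MHC class II classes, 21 genes were called, with the genes that define the classes among them. The counts were 13 by DESeq2, 118 without a filter on low counts, and 20 and 8 with boundaries of 10 and 40. They were 496 in the testes alone and 7 to 496 with 1 library left out. Of the members, 5 passed the thresholds, of which Cd209f, Cd209g and Timd4 passed the filter on low counts only through class II-low cells. The counts were 2 by DESeq2, 8 without a filter, 8 in the testes alone and 1 to 8 with 1 library left out. Boundaries of 10 and 40 gave 4 and 1, without F13a1 in either. The cause was not tested. TO libraries alone could not be fitted, since only TO replicate 2 had 10 cells in both classes.

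The replicate numbers are shared between conditions but nothing in the labels pairs the libraries, and with 2 pairs the correlation of the deviations was 0.106. With the replicate block, 2018 genes were called (563 higher and 1455 lower) and 34 genes of the lists in place of 22.

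The summed members were 3.39-fold higher in testes, and 4.64-fold with free RNA subtracted. In the settings run, 8 to 9 members were lower in the TO libraries than in the testes, with Lyve1 among them only without TO replicate 1. This contrast was used to choose the members, and the share of all genes with this order was not counted. Depth limits Cd163, with 20 and 16 UMIs, and the class II-high cells of TO replicate 1.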
